A study of Mus musculus with 24 samples.

Results

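The genes described here are 10 immediate early and Krüppel-like genes of the mouse, chosen by name: *Fos*, *Fosl1*, *Jun*, *Junb*, *Egr1*, *Ier2*, *Ier3*, *Klf4*, *Klf6* and *Dusp1*. All 10 were found among the 55487 genes of the deposited count table. They were followed through 24 BRB-seq libraries of AML-12 cells, an established hepatocyte line derived from a mouse that carried a transgene for human TGF-alpha, with 4 libraries in each of 6 groups. BRB-seq barcodes RNA samples, pools them early and reads the 3′ ends of messenger RNA. By the methods of the study, the medium used to model steatosis held charcoal-stripped serum and no dexamethasone, a glucocorticoid. BSA cells were given the albumin carrier alone. PAL cells were given palmitate at 0.25 mM, which is a saturated fatty acid used to load hepatocytes with lipid. The other 4 groups received the same palmitate and, for 24 h, esiRNA, a pool of short interfering RNAs made by enzyme digestion. CON received 200 nM against *Egfp*, a gene that mouse cells lack. BMAL1 and CHREBP received 100 nM against the clock factor *Bmal1* or the glucose-responsive factor *Chrebp*, so that their total dose was lower than that of CON. BOTH received both esiRNAs at a total of 200 nM. The 4 libraries of a group are not said to come from separate cultures, so p-values measure the spread between these libraries, which may be technical.

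Immediate early genes are switched on within minutes of a growth factor, stress or cytokine signal, without new protein synthesis, and most of their messenger RNAs decay fast. MAP kinases act through serum response factor and its partners on *Fos*, *Egr1* and *Ier2*. Fos and Jun family proteins pair as the factor AP-1, *Klf4* and *Klf6* encode zinc finger factors that bind GC-rich promoters, and *Dusp1* encodes a phosphatase that switches the MAP kinases off. In liver these genes are known for their surge after partial hepatectomy and in response to injury.

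The libraries held between 5399700 and 11237474 gene counts. Levels are given as normalized counts, which are counts divided by a size factor per library, and are compared only within a gene. Each of the 10 genes had at least 28 counts in every library. *Klf4* and *Fos* were the most thinly counted, at 28 to 95 and 41 to 161 counts per library, and *Junb* and *Klf6* the most deeply, at 1610 to 3640 and 1293 to 2938. The silenced transcripts were themselves low. *Bmal1*, listed as *Arntl*, was at 5.90 ± 1.53 CPM in CON, 3.47 ± 0.657 in BMAL1 and 2.93 ± 0.866 in BOTH (SD, n = 4). *Chrebp*, listed as *Mlxipl*, was at 4.69 ± 0.942 CPM in CON, 3.39 ± 0.673 in CHREBP and 2.19 ± 0.637 in BOTH. The range of *Bmal1* overlapped that of CON in BMAL1 and in BOTH, and the range of *Chrebp* did so in CHREBP but not in BOTH. Position on the library plate was aligned with the groups: BSA and PAL shared column 1, CON and BMAL1 column 2, and CHREBP and BOTH column 3. A difference between groups of different columns therefore cannot be told apart from one between columns. Within each column the first group filled rows A to D and the second rows E to H, so PAL against BSA, BMAL1 against CON and BOTH against CHREBP cannot be told apart from a difference between these sets of rows. All 10 hepatocyte markers were detected, while the endothelial markers *Cdh5*, *Kdr* and *Tek*, the stromal markers *Col1a2*, *Col3a1* and *Pdgfrb* and the macrophage markers *Adgre1* and *Clec4f* were at 0 in every library. Not all markers of other cell types were absent, as the macrophage list summed to 71.1 to 124 CPM and the cholangiocyte list to 1674 to 2366.

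Because *Bmal1* and *Chrebp* both encode factors that bind E-boxes, the stretch upstream of each start site was searched for the letters of 7 motifs. The RefSeq promoter table on GRCm38.p6 held 7 of the 10 genes, all but *Fosl1*, *Egr1* and *Ier2*, and bases -250 to -11 from the start were searched on both strands. The E-box CACGTG was present in *Klf4*, *Klf6* and *Dusp1*, against 5.69% of all 32851 promoters. The cAMP response element (CRE) TGACGTCA was present in *Dusp1* alone, against 1.44% of promoters, and its half-site TGACG, which lies within it on either strand, in *Fos*, *Junb*, *Klf4* and *Dusp1*, against 16.9%. The letters GGGCGG, a box bound by SP and KLF proteins, were in 6 of the 7 genes, all but *Junb*, against 31.3%. The EGR site GCGNGGGCG was in *Klf4* alone, where it overlapped GGGCGG boxes, against 4.39%. The AP-1 site TGANTCA and the CArG box bound by serum response factor were in none of the 7, against 6.58% and 1.44% of promoters. These are matches of letters and not measured binding. Only exact letters between bases -250 and -11 were searched, so a site further upstream or with other letters would be missed. The shares of all promoters were not adjusted for base composition. G and C made up 54.3% (*Ier3*) to 72.9% (*Klf4*) of the 7 stretches, read up to any annotated exon. The 3 genes with an E-box and *Fos*, which holds a pair of half-sites, are printed 5′ to 3′ on the strand of the gene, with the E-box, the CRE and its half-sites in capitals, and a half-site read on the other strand appears as CGTCA. They cover chr12:85473640-85473879 for *Fos* (+ strand), chr4:55532486-55532725 for *Klf4* (- strand), chr13:5861239-5861478 for *Klf6* (+ strand) and chr17:26508520-26508722 for *Dusp1* (- strand), the last ending before an annotated exon.
Fos: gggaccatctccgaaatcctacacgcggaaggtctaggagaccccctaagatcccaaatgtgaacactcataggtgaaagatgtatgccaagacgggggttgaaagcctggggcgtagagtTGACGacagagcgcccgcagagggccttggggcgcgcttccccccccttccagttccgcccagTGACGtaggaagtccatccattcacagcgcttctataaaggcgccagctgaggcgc
Klf4: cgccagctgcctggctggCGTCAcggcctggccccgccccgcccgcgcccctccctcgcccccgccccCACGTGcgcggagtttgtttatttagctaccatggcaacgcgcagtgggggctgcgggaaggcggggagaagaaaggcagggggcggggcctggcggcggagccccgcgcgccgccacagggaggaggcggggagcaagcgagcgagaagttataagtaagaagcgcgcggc
Klf6: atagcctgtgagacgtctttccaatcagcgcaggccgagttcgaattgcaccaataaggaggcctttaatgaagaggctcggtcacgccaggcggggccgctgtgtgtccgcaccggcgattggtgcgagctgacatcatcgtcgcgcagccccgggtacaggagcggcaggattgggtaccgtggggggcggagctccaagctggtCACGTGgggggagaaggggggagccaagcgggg
Dusp1: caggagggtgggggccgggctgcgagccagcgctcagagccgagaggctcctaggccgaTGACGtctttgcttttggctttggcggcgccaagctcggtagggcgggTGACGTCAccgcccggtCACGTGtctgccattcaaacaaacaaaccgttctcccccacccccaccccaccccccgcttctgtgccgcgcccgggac

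**Figure D1:**
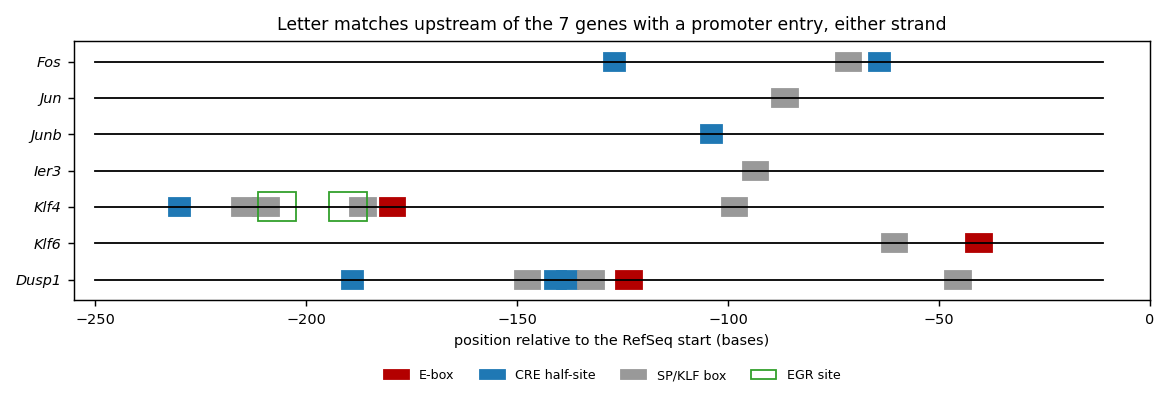
Positions of letter matches on either strand between bases -250 and -11 from the RefSeq start of the 7 genes with a promoter entry. Each row is a gene, the x axis is distance from the start in bases, and colours give the motif. The E-boxes of *Klf4*, *Klf6* and *Dusp1* start at -182, -43 and -126.

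The palmitate comparison asked how lipid loading changed these genes. In PAL against BSA, 5 of the 10 passed the test, *Fosl1* and *Junb* higher and *Fos*, *Jun* and *Egr1* lower (DESeq2, *Padj* under 0.1). Over all 12827 genes tested, 6.65% were higher and 7.6% lower. The comparison of the transfected control with PAL asked what transfection itself did. In CON against PAL, *Dusp1* alone passed, lower in CON, where 1.59% of all genes were higher and 0.92% lower. The silencing comparisons asked which genes differed from the transfected control after each silencing. Of the 10 genes, *Jun* was higher in BMAL1 than in CON, *Fos*, *Egr1* and *Dusp1* were higher in CHREBP than in CON, and *Fos*, *Jun*, *Egr1*, *Klf6* and *Dusp1* were higher in BOTH than in CON. None was called lower. The share of all genes called higher and lower was 0.166% and 0.324% in BMAL1, 2.65% and 0.771% in CHREBP, and 5.99% and 3.75% in BOTH. The median log2 fold change of the 10 genes was 0.18 in BMAL1, 0.22 in CHREBP and 0.39 in BOTH against CON, where that of all genes tested lay within 0.02 of 0. These comparisons share the CON libraries. A likelihood ratio test over the 4 esiRNA groups called the same 5 genes as BOTH against CON, where 9.92% of all genes were called. Its call of *Fos* was lost without CON replicate 2 (*Padj* = 0.130) and that of *Jun* without CON replicate 3 (*Padj* = 0.106).

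**Figure D2:**
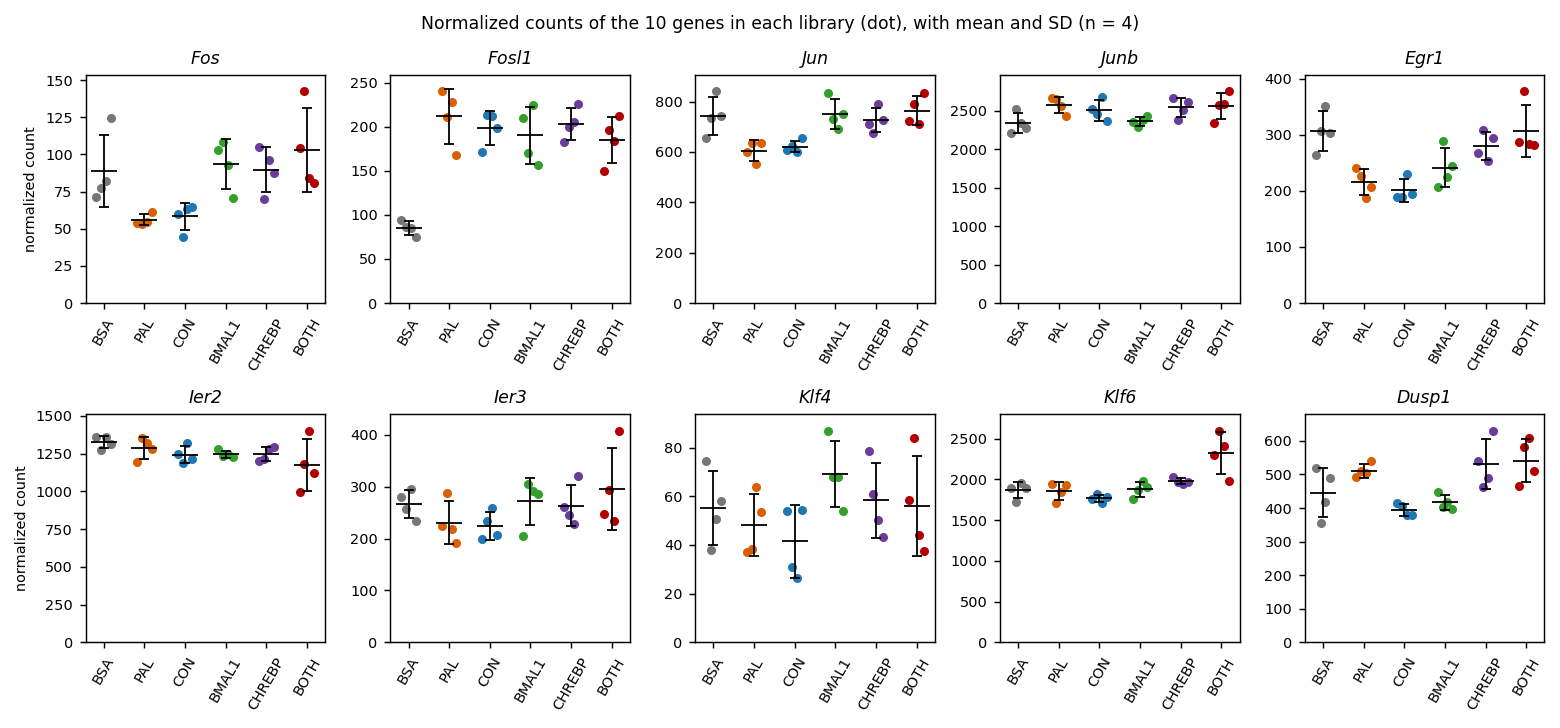
Normalized counts of the 10 genes by group on linear axes that start at 0, with 1 dot per library and bars for the mean and SD (n = 4). *Fosl1* is at 75.0 to 94.2 in BSA and above 150 in the other 20 libraries. *Fos*, *Jun*, *Egr1*, *Ier3*, *Klf4* and *Klf6* have their 2 lowest means in PAL and CON.

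The Fos family pair moved in opposite directions with palmitate. *Fosl1* (chr19:5447547-5455946) encodes FRA-1, a Fos protein without the activation domain of FOS that accumulates under sustained ERK signalling. Its BSA libraries were at 94.2, 86.1, 84.8 and 75.0 normalized counts and its PAL libraries at 240.3, 211.2, 228.1 and 167.9. All 4 PAL libraries were above all 4 BSA libraries, a rise of 2.47-fold (log2 1.31 ± 0.16, SE; DESeq2 *Padj* = 8.7e-15). The level then stayed in 1 band: CON lay between 171.5 and 213.8, BMAL1 between 156.3 and 225.0, CHREBP between 182.7 and 225.9, and BOTH between 150.4 and 212.2. The ranges of the 5 palmitate groups overlapped, and the 95% interval of the log2 fold change against CON was -0.34 to 0.20 for BMAL1, -0.24 to 0.29 for CHREBP and -0.37 to 0.17 for BOTH. *Ccdc85b*, which overlaps *Fosl1* on the other strand, had a log2 fold change of -0.08 in PAL against BSA (DESeq2 *Padj* = 0.770) and was higher in CON than in PAL, at 0.32 (*Padj* = 0.00854).

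*Fos* (chr12:85473890-85477273) encodes the Fos protein that dimerises with Jun proteins at AP-1 sites. It was at 71.1, 77.4, 82.1 and 124.5 normalized counts in BSA and at 54.1, 53.3, 54.8 and 61.4 in PAL. The groups did not overlap, and *Fos* fell by 0.64 ± 0.21 (SE) on the log2 scale (DESeq2 *Padj* = 0.0298). Without BSA replicate 4, its highest library, *Padj* was 0.216. CON stayed with PAL, at 60.1, 44.5, 63.3 and 64.9 normalized counts. Every library with a *Bmal1* or *Chrebp* esiRNA was above every CON and PAL library. BMAL1 was at 103.2, 108.4, 92.9 and 70.4, CHREBP at 105.2, 69.7, 96.1 and 87.5, and BOTH at 104.0, 142.3, 84.3 and 80.7. Against CON, the log2 fold change was 0.83 ± 0.21 in BOTH (SE; DESeq2 *Padj* = 0.00167), 0.63 ± 0.21 in CHREBP (*Padj* = 0.0766) and 0.69 ± 0.21 in BMAL1, which did not pass (*Padj* = 0.114). The CHREBP call was lost when any of CHREBP replicates 1, 3 and 4 or CON replicates 1, 2 and 3 was left out, with *Padj* from 0.108 to 0.338, and in edgeR (*Padj* = 0.139). In BMAL1, *Fos* passed when BMAL1 replicate 4, BOTH replicate 2 or BOTH replicate 4 was left out, with *Padj* from 0.0676 to 0.0975. The means of BOTH, BMAL1, CHREBP and BSA, in falling order from 102.8 to 88.7, were neighbours whose ranges overlapped, and the gap in the order lay between BSA and CON.

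*Jun* (chr4:95049034-95052222) encodes the main Jun partner of Fos proteins and, like *Fos*, had its lowest means in PAL and CON. It was at 656.9, 735.9, 840.4 and 744.1 normalized counts in BSA and at 598.0, 635.7, 551.3 and 636.7 in PAL. The groups did not overlap, and *Jun* fell by 0.29 ± 0.09 (SE) on the log2 scale (DESeq2 *Padj* = 0.0137). Without BSA replicate 3, *Padj* was 0.103. CON was again close to PAL, at 607.7, 623.1, 601.3 and 653.9. BMAL1 at 691.4 to 833.5, CHREBP at 674.0 to 790.5 and BOTH at 710.3 to 833.4 all lay above CON and PAL. Against CON, the log2 fold change was 0.30 ± 0.08 in BOTH (SE; DESeq2 *Padj* = 0.00416), 0.27 ± 0.08 in BMAL1 (*Padj* = 0.0937) and 0.22 ± 0.08 in CHREBP, which did not pass (*Padj* = 0.120). The BMAL1 call was lost in 12 of the 16 fits without 1 library, which were those without any CON or BMAL1 library, CHREBP replicates 1, 3 and 4 or BOTH replicate 3 (*Padj* up to 0.524), and in edgeR (*Padj* = 0.323). In CHREBP, *Jun* passed without CHREBP replicate 2 (*Padj* = 0.0755) or BOTH replicate 4 (*Padj* = 0.0673). *Junos*, antisense to *Jun*, had at most 14 counts in a library.

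*Junb* (chr8:84974484-84978718) encodes a Jun protein that often restrains growth where JUN promotes it. Its PAL libraries were at 2664, 2657, 2567 and 2437 normalized counts and its BSA libraries at 2219, 2521, 2349 and 2278, so that the groups overlapped. The log2 fold change was 0.15 ± 0.06 (SE; DESeq2 *Padj* = 0.0963), and 6 of the 8 fits without 1 library lost the call, those without BSA replicates 1, 3 or 4 or PAL replicates 1, 2 or 3 (*Padj* from 0.149 to 0.319). It was also lost in edgeR (*Padj* = 0.115) and with all 24 libraries in the fit (DESeq2 *Padj* = 0.113). The silencing groups lay between 2293 and 2754, and none differed from CON by the test, with log2 fold changes of -0.08 in BMAL1, 0.02 in CHREBP and 0.03 in BOTH. *Prdx2*, which overlaps *Junb* on the other strand, had a log2 fold change of 0.07 in PAL against BSA (*Padj* = 0.597).

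*Egr1* (chr18:34859823-34864984) encodes a zinc finger factor that responds to serum and is widely used as a readout of ERK activity. It was at 263.8, 307.5, 351.7 and 302.7 normalized counts in BSA and at 241.6, 226.3, 187.8 and 207.6 in PAL. Every PAL library was below every BSA library, and *Egr1* fell by 0.50 ± 0.12 (SE) on the log2 scale (DESeq2 *Padj* = 0.000767). CON was at 188.5, 189.5, 230.3 and 194.8, with a 95% interval of -0.34 to 0.14 for the log2 fold change against PAL. The means of BMAL1, CHREBP and BOTH were 241.7 ± 35.0, 280.6 ± 24.9 and 307.3 ± 46.8 (SD, n = 4). The CHREBP libraries at 268.0, 308.2, 252.7 and 293.5 and the BOTH libraries at 287.6, 377.4, 283.0 and 281.3 were all above the CON libraries, while BMAL1 at 207.7, 289.0, 225.0 and 244.9 overlapped them. Against CON, the log2 fold change was 0.61 ± 0.13 in BOTH (SE; DESeq2 *Padj* = 5.29e-05), 0.48 ± 0.13 in CHREBP (*Padj* = 0.00803) and 0.27 ± 0.13 in BMAL1, which did not pass (*Padj* = 0.597). *Egr1* was also higher in BOTH than in BMAL1, by 0.34 ± 0.13 (*Padj* = 0.0679), a call that was lost without BOTH replicate 2 (*Padj* = 0.313) or without BMAL1 replicate 1, 3 or 4 (*Padj* from 0.136 to 0.219). BOTH and BSA were neighbours in the order of means, at 307.3 and 306.4, and their ranges overlapped.

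The 2 immediate early response genes did not pass in any of these comparisons. *Ier2* (chr8:84661331-84662852), a small nuclear protein gene induced with *Fos*, was at 1276 to 1363 normalized counts in BSA and 1192 to 1355 in PAL. CON ran from 1188 to 1322, BMAL1 from 1225 to 1277 and CHREBP from 1202 to 1291. BOTH had the widest range, at 993.4, 1181, 1401 and 1123. The 95% interval of the log2 fold change was -0.16 to 0.09 in PAL against BSA and -0.24 to 0.07 in BOTH against CON. *Ier3* (chr17:35821684-35822923), which encodes a regulator of cell survival and ERK signalling, was at 280.1, 257.2, 294.9 and 234.8 in BSA and at 224.4, 288.7, 218.0 and 192.0 in PAL, and the groups overlapped. Without PAL replicate 2 it passed as lower (DESeq2 *Padj* = 0.078). In BOTH it was at 247.8, 294.3, 234.5 and 408.0, against 198.4, 234.7, 258.3 and 207.5 in CON. The log2 fold change of 0.40 ± 0.16 (SE) did not pass (*Padj* = 0.125), and it did so without BOTH replicate 1 or 3, BMAL1 replicate 1 or CON replicate 3 (*Padj* from 0.0449 to 0.0944). For both genes, each pair of neighbouring groups in the order of means had overlapping ranges.

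*Klf6* (chr13:5861482-5870394), a zinc finger factor induced in injured liver, differed in BOTH. BSA at 1723 to 1960 normalized counts and PAL at 1716 to 1948 covered almost the same range, with a 95% interval of -0.13 to 0.12 for the log2 fold change. CON was at 1762, 1820, 1716 and 1782, BMAL1 at 1755, 1872, 1983 and 1903, CHREBP at 2028, 1965, 1944 and 1973, and BOTH at 2302, 2597, 2405 and 1980. All 4 BOTH libraries were above all 4 CON libraries, a log2 difference of 0.39 ± 0.07 (SE; DESeq2 *Padj* = 2.82e-06). BOTH replicate 4 was within the CHREBP and BMAL1 ranges. *Klf6* was higher in BOTH than in BMAL1 by 0.30 ± 0.07 (*Padj* = 0.000701) and than in CHREBP by 0.23 ± 0.07 (*Padj* = 0.0925). The second of these calls was lost in 12 of the 16 fits without 1 library (*Padj* from 0.101 to 0.281), which were those without any CHREBP library and without BOTH replicate 1, 2 or 3, BMAL1 replicate 2 or 4 or CON replicate 1, 3 or 4, and in edgeR (*Padj* = 0.197). In CHREBP against CON, the groups did not overlap and the log2 fold change of 0.16 ± 0.07 did not pass (*Padj* = 0.323), except without BOTH replicate 4 (*Padj* = 0.0839).

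*Klf4* (chr4:55527143-55532466), a zinc finger factor of epithelial differentiation, was the most thinly counted of the 10 and passed no test. BSA was at 74.5, 37.7, 50.5 and 58.0 normalized counts, PAL at 37.0, 38.2, 63.7 and 53.6, and CON at 53.9, 31.0, 26.3 and 54.5. BMAL1 was the highest group, at 86.9, 68.0, 68.0 and 53.9, and overlapped CON. Its log2 fold change against CON was 0.75 with a 95% interval of 0.21 to 1.29, but DESeq2 gave no *Padj*, because the gene fell under the mean count set by independent filtering, and edgeR gave 0.568. The log2 fold change was 0.51 ± 0.28 in CHREBP (SE; DESeq2 *Padj* = 0.505) and 0.46 ± 0.28 in BOTH (*Padj* = 0.407).

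*Dusp1* (chr17:26505590-26562128) was the gene of the set that differed between the transfected control and PAL. It was at 519.9, 355.9, 418.4 and 490.9 normalized counts in BSA, 492.4, 509.0, 503.2 and 541.0 in PAL, and 413.8, 404.6, 378.4 and 377.9 in CON. BSA and PAL overlapped (log2 0.21 ± 0.11, SE; DESeq2 *Padj* = 0.230), and the gene passed as higher in PAL without BSA replicate 1 (*Padj* = 0.0800). CON lay below every PAL library, and *Dusp1* fell by 0.38 ± 0.08 on the log2 scale (*Padj* = 0.000707). BMAL1 was near CON, at 446.6, 402.7, 419.4 and 397.5. CHREBP was at 541.6, 461.4, 490.9 and 630.2 and BOTH at 465.7, 581.6, 607.5 and 509.8, all above BMAL1 and CON. Against CON, the log2 fold change was 0.42 ± 0.10 in CHREBP (SE; DESeq2 *Padj* = 0.00222) and 0.46 ± 0.10 in BOTH (*Padj* = 0.000334), and against BMAL1 it was 0.35 ± 0.10 in CHREBP (*Padj* = 0.0311) and 0.38 ± 0.10 in BOTH (*Padj* = 0.0056). The CHREBP call against BMAL1 was lost without BMAL1 replicate 2 or 4 or CHREBP replicate 1 or 4 (*Padj* from 0.119 to 0.240). CON was the lowest group and the ranges of CHREBP, BOTH and PAL overlapped. With PAL as the reference, the log2 fold change of *Dusp1* was 0.05 ± 0.11 in CHREBP and 0.08 ± 0.11 in BOTH, and neither passed in the fit over all 24 libraries (DESeq2 *Padj* = 0.902 and 0.741). In BMAL1 it was -0.30 ± 0.11, with no overlap between the groups, and did not pass (*Padj* = 0.114). *Ergic1* overlaps the long *Dusp1* gene model on the other strand and was called higher in PAL than in BSA, at 0.22 (DESeq2 *Padj* = 0.0824), and not called in CON against PAL (*Padj* = 0.743). Gene models on the same strand that also overlap *Dusp1* were not analysed here.

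**Figure D3:**
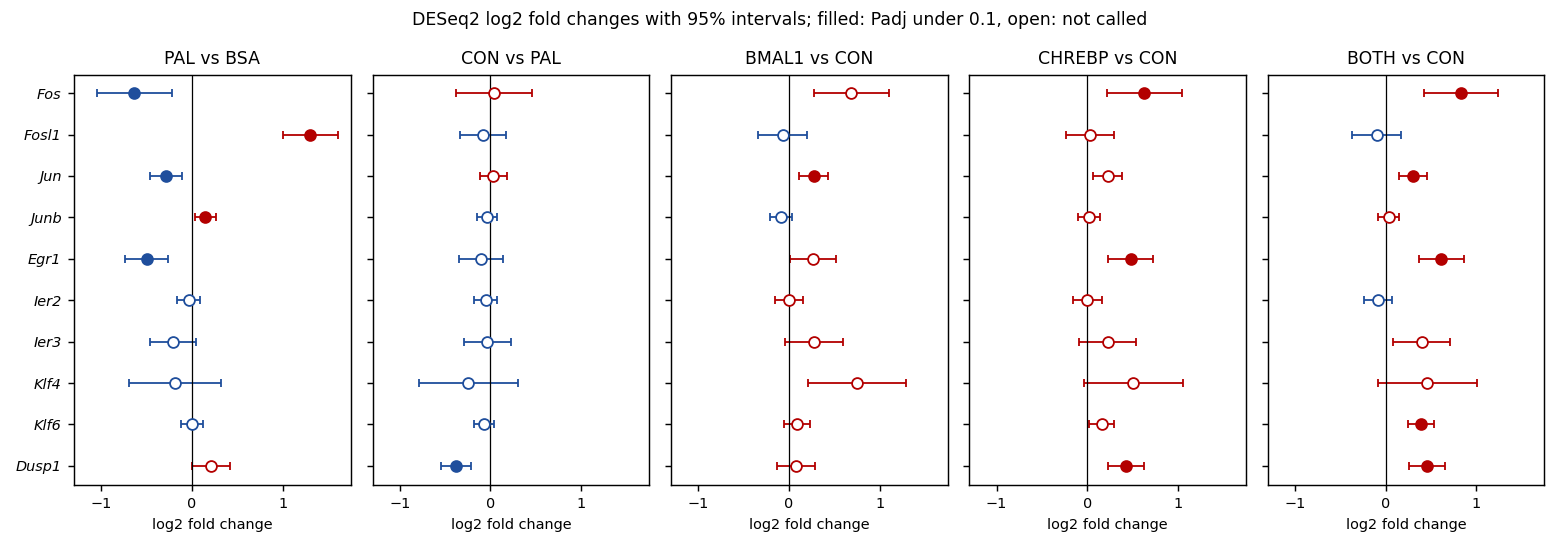
DESeq2 log2 fold changes of the 10 genes with 95% intervals in 5 comparisons, red above 0 and blue below, filled where *Padj* was under 0.1. *Fosl1* stands at 1.31 in PAL against BSA, and *Fos*, *Jun*, *Egr1*, *Klf6* and *Dusp1* are filled in BOTH against CON.

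The silencing groups were also set against PAL, which shared a library column with none of them, so columns cannot be separated here either. This comparison was added after the data were seen, and it changes the column as well as the transfection. *Fos* and *Jun* were higher than in PAL in all 3 silencing groups, *Egr1* in CHREBP and BOTH, and *Klf6* in BOTH. The log2 fold changes in BOTH were 0.88 ± 0.21 for *Fos*, 0.34 ± 0.08 for *Jun*, 0.52 ± 0.12 for *Egr1* and 0.32 ± 0.07 for *Klf6* (SE; DESeq2 *Padj* = 0.000574, 0.000939, 0.000677 and 5.54e-05). *Fos* in BMAL1 was at 0.73 ± 0.21 (*Padj* = 0.0259). The share of all genes called higher and lower against PAL was 1.56% and 1.45% in BMAL1, 4.4% and 2.12% in CHREBP, and 7.55% and 5.51% in BOTH.

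The contrasts between silencing groups asked whether the second esiRNA added to the first. BOTH received a higher total esiRNA dose than BMAL1 or CHREBP, so a second target in BOTH cannot be told apart from a higher dose. Of the 10 genes, BOTH differed from CHREBP in *Klf6* alone, where 0.843% of all genes were higher and 0.151% lower, and from BMAL1 in *Egr1*, *Klf6* and *Dusp1*, where 6.35% were higher and 4.08% lower. CHREBP differed from BMAL1 in *Dusp1* alone, where 2.9% of all genes were higher and 0.915% lower. For the interaction, the effect of *Bmal1* esiRNA with *Chrebp* esiRNA minus that without it, DESeq2 called 0 of the 10 genes and 1.47% of all genes. At an unadjusted p under 0.05 there was 1, *Klf4*, and edgeR called 0. The interaction estimate was -0.48 on the log2 scale for *Fos*, with a 95% interval of -1.06 to 0.09, and 0.14 for *Klf6*, with an interval of -0.05 to 0.34. CON and BOTH had the higher total dose and BMAL1 and CHREBP the lower, so the interaction cannot be told apart from an effect of dose.

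Interferon-induced genes also differed between the groups. For a list of 14 such genes, the summed level was 57.6 to 69.4 CPM in the BSA libraries and 49.9 to 57.7 in the PAL libraries. The CON libraries were at 135 to 1050 and the BMAL1 libraries at 150 to 225. CHREBP ran from 3283 to 6776, while BOTH ran from 6234 to 11047. All 14 were called higher in CHREBP and in BOTH than in CON, 7 were lower in BMAL1 (3 in edgeR), and 11 of the 13 tested were higher in CON than in PAL. The part of this response in the levels of *Fos*, *Jun*, *Egr1*, *Klf6* and *Dusp1* was not tested. Of 10 heat shock genes, 3 were called higher in PAL than in BSA and 5 in BOTH than in CON. In CHREBP against CON, DESeq2 and edgeR each called 0, with 1 at an unadjusted p under 0.05. The summed level was 2340 to 2499 CPM in BSA, 2500 to 2687 in PAL and 2648 to 2900 in BOTH. Some cell type markers also differed between PAL and BSA. Of 10 hepatocyte markers, 2 were called higher and 6 lower, with a median log2 fold change of -0.44. *Alb* was at -0.97 and *Apoe* at -0.92, although the list summed to 6952 to 7330 CPM in BSA and 7734 to 8379 in PAL. That sum leans on its most counted genes, *Krt18* having 35403 normalized counts in PAL and *Alb* 109. Of 7 macrophage markers, 3 were tested and *Cd14* alone was called, lower at -0.54, while *Adgre1* and *Clec4f* were at 0, and the list summed to 114 to 124 CPM in BSA and 74.4 to 86.4 in PAL. Of 5 cholangiocyte markers, 4 were tested, with *Krt19* higher at 0.53 and *Spp1* lower at -0.48, and the list summed to 2189 to 2366 CPM in BSA and 1841 to 1992 in PAL. In CON against PAL, where *Dusp1* was lower, 2 hepatocyte markers were higher, *Alb* at 0.63 and *Apoe* at 0.52, and 1 was lower. In BOTH against CON, 4 of the 10 hepatocyte markers were lower, among them *Apoe* at -0.31 and *Trf* at -0.28, and 2 of the 4 cholangiocyte markers tested were lower, *Krt7* at -0.49 and *Krt19* at -0.34. In BMAL1 against CON, *Ttr* alone of the hepatocyte markers was called, higher at 0.46. *Krt7* was lower in CHREBP than in CON at -0.32, a call lost in edgeR (*Padj* = 0.165). The part of these lists was not tested either. The share of mitochondrial counts, between 1.95% and 4.19%, was lowest in BOTH replicate 4, and the calls of *Fos*, *Jun*, *Egr1*, *Klf6* and *Dusp1* in BOTH against CON held without any 1 library.

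The counts of the lists of related genes stand beside the shares of all genes called, 6.65% higher and 7.6% lower in PAL against BSA, 2.65% and 0.771% in CHREBP against CON, and 5.99% and 3.75% in BOTH against CON. Other immediate early genes were described from a list of 37. In PAL against BSA, 3 of the 32 tested were higher and 8 lower, among them the C/EBP factors *Cebpd* and *Cebpb* and the pseudokinase *Trib1*, with log2 fold changes of -0.95, -0.70 and -0.60. In CON against PAL, *Gadd45a* and *Ccn1* were lower by the test, at -0.23 each, and none was higher, with *Gadd45a* lost in edgeR (*Padj* = 0.119). In CHREBP against CON, 7 of 35 were higher and 0 lower, led by *Csrnp1* at 0.62, the stress factor *Atf3* at 0.55 and *Trib1* at 0.35. In BOTH against CON, 11 of 35 were higher and 1 lower, led by *Csrnp1* at 1.14, *Atf3* at 0.90 and the clock output repressor *Nfil3* at 0.52. In BMAL1 against CON, DESeq2 and edgeR each called 0 of 35, and 3 had an unadjusted p under 0.05. The median log2 fold change of the list was -0.08 in PAL against BSA, and 0.04 in BMAL1, 0.16 in CHREBP and 0.25 in BOTH against CON, beside medians of all genes within 0.02 of 0.

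Of 15 other KLF genes, 10 were tested in PAL against BSA, and *Klf15* and *Klf9*, both glucocorticoid-responsive, were lower with log2 fold changes of -0.63 and -0.34, while *Klf5* was among the 2 that were higher, at 0.49. *Klf10* was lower in CON than in PAL, at -0.30. *Klf15* was lower than CON in BMAL1 at -0.53, in CHREBP at -0.45 and in BOTH at -0.39, and edgeR lost all 3 calls (*Padj* = 0.283, 0.111 and 0.108). In BOTH, *Klf5* at -0.29 and *Klf13* at -0.21 were lower too, so that 3 of the 12 tested were lower, against 1 in edgeR, with a median log2 fold change of -0.08 for the list.

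The feedback genes of the MAP kinase pathway, a list of 17 MAP kinase phosphatases and Sprouty genes, had 4 higher and 1 lower of 15 tested in PAL against BSA. *Spry2*, *Dusp6* and *Dusp5* were higher by 0.76, 0.55 and 0.55 on the log2 scale. *Dusp5*, an ERK phosphatase, was also higher in CHREBP, at 0.29, a call lost in edgeR (*Padj* = 0.144), and in BOTH, at 0.77, where *Dusp8* at 0.37 and *Dusp10* at 0.28 were higher as well. In CON against PAL, where *Dusp1* was lower, DESeq2 and edgeR each called 0 of the 15, and 3 had an unadjusted p under 0.05. Of 7 ligands of the EGF receptor, 3 were higher in PAL than in BSA, *Areg* at 1.56, *Hbegf* at 0.51 and *Tgfa* at 0.23. Against CON, *Areg* was lower in BMAL1 at -0.68, a call lost in edgeR (*Padj* = 0.283), and *Btc* was higher in CHREBP at 0.59 and in BOTH at 0.76.

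Of 19 MAP kinases, serum response factor and its cofactors, 2 were called in PAL against BSA, a share no higher than that of all genes, *Mapk3* at -0.37 and *Hras* at 0.26. *Srf* at 0.39 and *Map2k1* at 0.38 were higher in CHREBP than in CON, and *Map2k1* at 0.75 and *Mapk14* at 0.27 in BOTH. Of 20 genes known as targets of AP-1, EGR or serum response factors, 5 of 14 tested were higher and 1 lower in PAL than in BSA, among them *Ccnd1* and *F3* at 0.58 and 0.40. *Ccnd1* was lower in CON than in PAL at -0.24. *Lif* and *F3* were higher than CON in CHREBP, at 0.43 and 0.35, where *Ccnd1* was lower at -0.25, and edgeR lost the calls of *Lif* and *F3* (*Padj* = 0.141 and 0.103). Both were higher in BOTH, at 0.67 and 0.55, where *Vcl* was higher at 0.25.

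**Figure D4:**
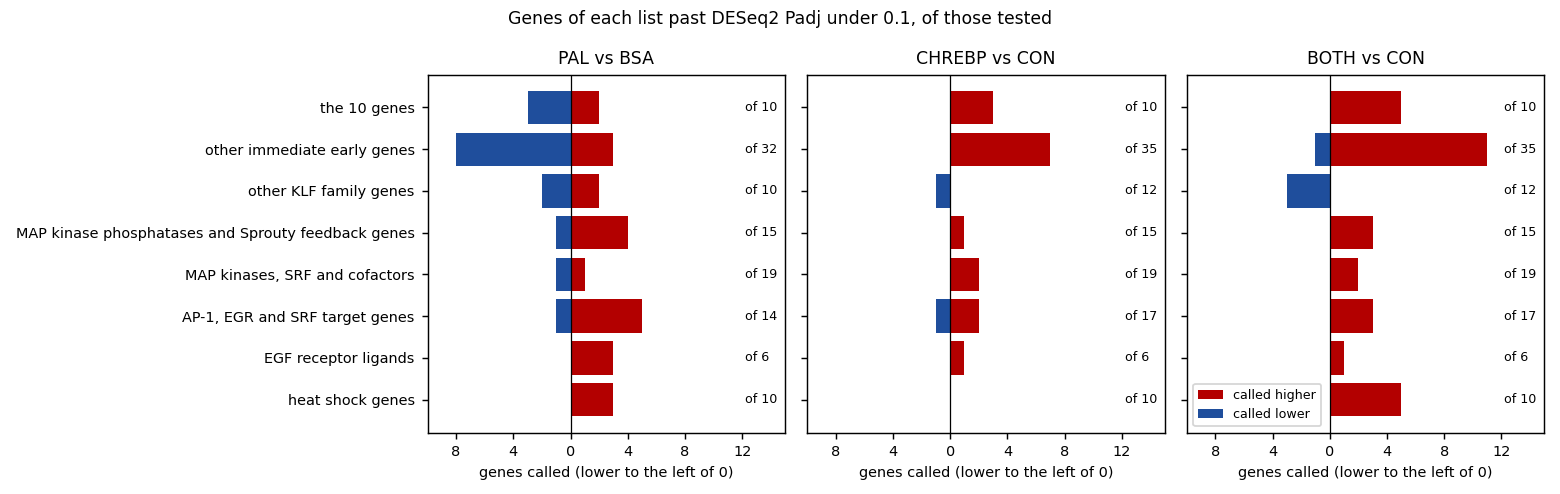
Number of genes of each list called higher (red, right of 0) or lower (blue, left of 0) by DESeq2 at *Padj* under 0.1 in 3 comparisons, with the number tested at the right. The list of other immediate early genes has 8 lower and 3 higher in PAL against BSA, and 11 higher and 1 lower in BOTH against CON.

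Across the 24 libraries, which differ in depth, plate position and group, the levels of *Fos*, *Jun* and *Egr1* varied together. Pearson's r of log2 levels was 0.73 for *Fos* with *Jun*, 0.66 for *Fos* with *Egr1* and 0.64 for *Jun* with *Egr1*. Within groups it was 0.22, 0.25 and 0.15. *Fosl1* had an r of -0.26 with *Fos* and 0.54 with *Junb*. Among the other genes whose mean normalized count was 50 or more, the 2 whose levels were most like those of *Fosl1* were *Emp1* and *Pno1* (r = 0.91 and 0.88), and those most like *Klf6* were *Optn* and *Ap3m2* (r = 0.88 for each). The most like *Dusp1* were *Snai2* and *Smim3* (0.80 and 0.76), *Egr1* had *Saraf* and *Myo1d* (0.81 for each), *Fos* had *Mob3c* and *Cyth1* (0.81 and 0.76), and *Junb* had *Nat10* and *Farsb* (0.81 and 0.79). For *Jun*, *Ier2*, *Ier3* and *Klf4*, the highest r was 0.76, 0.70, 0.69 and 0.67.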

How the data were processed

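The authors demultiplexed the reads with BRB-seq tools, used STAR for alignment to mm10 and HTSeq for counting (featureCounts is also named), and deposited raw counts per gene. Versions, annotation release, use of strand and handling of molecular identifiers are not given in the sources used here. Without strand, *Fosl1*, *Jun*, *Junb* and *Dusp1* cannot be separated from genes overlapping them on the other strand. The genes and gene lists were chosen with earlier results of these data known. All 10 genes were reported throughout. From other lists, counts were given and at most 3 called genes were named per comparison, those with the largest fold change and a mean normalized count of at least 50, with interferon and heat shock genes by count only. One further gene that this rule names is not reported here. Genes whose counts summed to 25 or more were tested with DESeq2 1.42.0 in R 4.3.3 (Wald or likelihood ratio test, Benjamini-Hochberg *Padj* under 0.1). PAL with BSA and CON with PAL were fitted as 8 libraries, and the esiRNA groups as 16. Normalized counts used size factors of all 24 libraries. edgeR 4.0.16, other scalings, filters and fits, and leaving out each library were alternatives. The code was tested on simulated data. Each of the 36 replicate pairs differed by more than counting noise. Positions are GENCODE M21 (GRCm38, equal to mm10).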

Additional observations from a re-analysis of the deposited data

Results flagged for a closer look

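In 60 groups of 4 libraries, which are 10 genes in 6 groups, 2 held a library far from the other 3 by Dixon's ratio, where chance gives about 1 in 20. Both were *Egr1*. CON replicate 3 was at 230.3 normalized counts, the highest of CON (ratio 0.850), and BOTH replicate 2 was at 377.4, the highest of BOTH (ratio 0.934). *Egr1* stayed past the threshold in BOTH against CON without either library, while its call in BOTH against BMAL1 was lost without BOTH replicate 2.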

How the results depend on the processing

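Of 720 refitted values of the 10 genes in settings that left out no library, 696 kept their side of the threshold, 17 lost a call and 7 gained one. Of 1280 that left out 1 library, 1222 kept it, 46 lost a call and 12 gained one. No called value changed sign, and uncalled values that did so, 62 with CON kept as the reference, were at most 0.12 in size. In PAL against BSA, where 5 were called, the replicate block gave 3, and leaving out 1 library gave 3 to 5. In BMAL1 against CON, where 1 was called, edgeR, TMM size factors, no independent filtering and the replicate block gave 0, all 24 libraries in the fit, the 2 groups alone and PAL as the reference (chosen after seeing the data) gave 2, and leaving out 1 library gave 0 to 2. In CHREBP against CON the 2 groups alone gave 5, and leaving out 1 library 2 to 5. In BOTH against CHREBP, edgeR, no independent filtering, the block and the 2 groups alone gave 0, and leaving out 1 library 0 to 1, as it did in CHREBP against BMAL1. The cause was not tested. Over all genes, calls in the main fit and in edgeR numbered 68 and 14 in BMAL1 against CON, 138 and 53 in BOTH against CHREBP, and 204 and 122 for the interaction. Leaving out 1 library gave 16 to 107, 56 to 217 and 104 to 291 calls in these, and 180 to 343 in CON against PAL. The shares of all genes called move with these counts. Calls in the main fit and with the replicate block numbered 1828 and 1188 in PAL against BSA, 325 and 186 in CON against PAL, and 68 and 22 in BMAL1 against CON. Same-numbered libraries shared only a number: in no comparison did all 4 pairs deviate together (r over 0.1), and the highest mean r was 0.11. With 28 to 161 counts per library, *Klf4* and *Fos* had the widest intervals.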
